A study of Mus musculus with 30 samples.

Results

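The genes described here encode proteins of nucleolar ribosome assembly: subunits of RNA polymerase I, nucleolar phosphoproteins, proteins of the small nucleolar ribonucleoproteins (snoRNPs), and factors that mature the small and the large ribosomal subunit. They were chosen by name, with earlier results of these data known, 37 genes in all. Of these, 31 had a probe annotated to that gene alone, 30 genes (32 probes) also had values on at least 24 of 30 arrays, and 28 genes (29 probes) were tested, out of 9919 genes and 12888 probes tested. The measured tumours were mammary carcinomas of c-Myc transgenic mice. Total RNA extracts of these tumours were hybridised on dual-channel arrays against 1 reference RNA shared by every array. Each of 15 extracts was used on 2 arrays, once in each channel. The promoter of the transgene, the strain, the age of the mice and the source of the reference RNA are not stated in the labels.

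All 15 extracts form 1 group, since every one is labelled as a carcinoma of Myc transgenic mice. Their codes hold 10 numbers, of which 579 stands on 5 extracts and 546 on 2. Arrays of extracts 550-A and 561-B were described under tumour progression, arrays of 12 extracts under epithelial to mesenchymal transition (EMT), and the 2 arrays of 595-A carried one description each. Whether any 2 extracts share an animal is not stated, so every p-value below holds for these extracts alone. The tests of extract means rest on the spread among extracts, some of which may be technical. The F-test between extracts rests on the spread between the paired arrays of an extract. There is no tumour without the transgene and no normal gland among the samples, so no comparison with either was made.

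Ribosome production starts in the nucleolus, where RNA polymerase I copies the ribosomal DNA into 1 long precursor. Box C/D snoRNPs add methyl groups to this precursor, box H/ACA snoRNPs turn chosen uridines into pseudouridines, and a large complex around the U3 snoRNA, the small-subunit processome, folds and cuts the part that becomes the small subunit. Other factors, among them the PeBoW complex of Pes1, Bop1 and Wdr12, mature the part that becomes the large subunit. Myc is a transcription factor that is widely known to raise the expression of ribosome biogenesis genes in many cell types, and it binds the sequence CACGTG, called an E-box.

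Promoter sequences were available for 32 of the 37 genes in RefSeq (build GRCm38.p6), as windows of 250 bases before to 50 bases after each gene's start. CACGTG reads the same on both strands, so 1 search covered both. It occurred in 6 of the 32 genes (18.8%), Nop2, Pes1, Imp4, Wdr43, Utp20 and Tsr1, against 2187 of all 27025 genes with a window (8.1%). The member windows were richer in G and C, with a median of 57.6% against 52.7% over all windows. Among all 8812 windows with between 52.8% and 62.6% G and C, the middle range of the member windows, 8.7% held the motif, and 3 of the 16 member windows in that range did. The other 3 windows with the motif lay outside it. The match is a description of these letters, and no match says only that they are not in the window. The windows of the 5 tested genes with the motif are printed because they show where it lies relative to the start, and that of Nhp2 because it had the highest ratio of all members. Capitals mark CACGTG, which Nhp2 lacks. Its first base lay at -60 in Nop2 (chr6:125131633-125131932, plus strand), 3 in Pes1 (chr11:3963725-3964024, plus strand), -121 in Imp4 (chr1:34439579-34439878, plus strand), 18 in Wdr43 (chr17:71615965-71616264, plus strand) and 38 in Utp20 (chr10:88826765-88827064, minus strand), counted from the gene's start. The Nhp2 window is chr11:51619523-51619822, plus strand.
Nop2: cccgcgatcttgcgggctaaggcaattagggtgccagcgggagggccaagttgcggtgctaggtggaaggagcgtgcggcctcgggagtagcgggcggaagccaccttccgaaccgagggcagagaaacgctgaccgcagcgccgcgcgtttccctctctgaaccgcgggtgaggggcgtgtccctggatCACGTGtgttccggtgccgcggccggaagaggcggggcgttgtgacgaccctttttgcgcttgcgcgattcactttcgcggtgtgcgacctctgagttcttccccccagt
Pes1: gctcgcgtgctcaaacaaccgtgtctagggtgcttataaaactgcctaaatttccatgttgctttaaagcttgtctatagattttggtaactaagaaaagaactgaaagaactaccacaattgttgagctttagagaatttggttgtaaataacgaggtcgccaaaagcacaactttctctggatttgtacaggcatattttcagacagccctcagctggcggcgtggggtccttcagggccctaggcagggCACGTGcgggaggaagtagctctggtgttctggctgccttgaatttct
Imp4: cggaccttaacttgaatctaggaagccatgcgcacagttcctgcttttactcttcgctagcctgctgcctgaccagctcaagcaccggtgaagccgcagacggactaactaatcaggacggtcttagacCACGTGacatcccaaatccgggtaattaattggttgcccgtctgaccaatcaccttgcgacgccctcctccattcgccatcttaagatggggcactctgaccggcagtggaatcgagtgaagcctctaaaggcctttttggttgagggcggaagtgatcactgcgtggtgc
Wdr43: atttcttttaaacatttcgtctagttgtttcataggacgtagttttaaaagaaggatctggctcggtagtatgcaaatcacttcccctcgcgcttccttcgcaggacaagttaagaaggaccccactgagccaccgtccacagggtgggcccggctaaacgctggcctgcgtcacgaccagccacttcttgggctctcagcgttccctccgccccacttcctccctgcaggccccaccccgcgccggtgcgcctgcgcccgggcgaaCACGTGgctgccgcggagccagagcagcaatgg
Utp20: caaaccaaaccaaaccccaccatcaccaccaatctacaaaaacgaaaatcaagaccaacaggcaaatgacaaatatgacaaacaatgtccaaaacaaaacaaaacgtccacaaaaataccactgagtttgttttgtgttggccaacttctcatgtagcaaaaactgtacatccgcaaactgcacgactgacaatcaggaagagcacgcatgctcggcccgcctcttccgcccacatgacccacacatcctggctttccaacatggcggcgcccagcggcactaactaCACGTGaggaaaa
Nhp2: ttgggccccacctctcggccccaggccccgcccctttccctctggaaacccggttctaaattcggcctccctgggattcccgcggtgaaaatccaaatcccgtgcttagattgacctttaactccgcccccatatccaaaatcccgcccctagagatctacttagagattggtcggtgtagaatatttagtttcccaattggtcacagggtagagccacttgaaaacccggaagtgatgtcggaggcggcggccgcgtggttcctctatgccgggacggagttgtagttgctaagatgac

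Values are log2 ratios of the 2 channels as deposited, with the sign turned on arrays that carried the extract in channel 2 and the 2 arrays of an extract averaged. Neither the dyes nor the numerator are labelled, so the direction of the ratio is not settled. Myc itself had a mean log2 ratio of 3.16 ± 0.11 (SE, n = 15 extracts; 8.95-fold; adjusted p = 1.96e-13, limma) on 1 side of the ratio, with every extract on that side. That side is called the Myc side and written as positive. In tumours with a Myc transgene it is likely the side of higher levels in the extract than in the reference, although the design alone does not prove this. Arrays held 13434 to 21991 values, and array medians after turning ran from -0.941 to 1.135, so the arrays were not on 1 common level. Over probes, paired arrays of an extract correlated at a median r of 0.20 (lowest -0.039), below arrays of different extracts in the same channel (median 0.56 in channel 1 and 0.57 in channel 2). Values per orientation are therefore given below for members with wide gaps. The mean of the 2 arrays cancels a dye effect only where both arrays had a value. Of markers for the labelled tissue, 8 of 8 epithelial genes lay on the Myc side (median log2 ratio 2.40), while 4 of 6 fibroblast markers lay on the opposite side (median -0.98) and none of 4 skeletal muscle markers passed the test (median 0.15). Markers of other cell types were on the Myc side as well, namely 4 of 4 endothelial genes (median 0.82) and 4 of 6 macrophage genes (median 1.09). By the same test, 30.4% of all probes lay on the Myc side and 16.9% opposite to it. Of the macrophage list, Lyz2 was highest at 3.27, and Ptprc, a marker of all white blood cells, was on the opposite side at -2.40. Their part in the members' values was not tested.

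Against the reference, the nucleolar genes stood together on the Myc side. Of the 28 member genes, 25 differed from 0 toward the Myc side and none toward the other, while Gar1, Bop1 and Rrs1 did not pass (limma on the 15 extract means, Benjamini-Hochberg adjusted p under 0.05 over all probes). Of all 12888 probes tested, 30.4% lay on the Myc side by the same rule and 16.9% opposite to it. The median log2 ratio was 0.72 over the member genes, with a range of -0.38 to 1.49, and 0.13 over all probes. With array medians subtracted, 25 members were on the Myc side (25.7% of all probes) and Rrs1 passed on the opposite side; the member median was then 0.62 and that of all probes 0.03. Of the 29 member probes, 10 were above 0 in all 15 extracts, against 7.95% of all probes. As a single RNA served as reference, no test holds its variation.

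**Figure D1:**
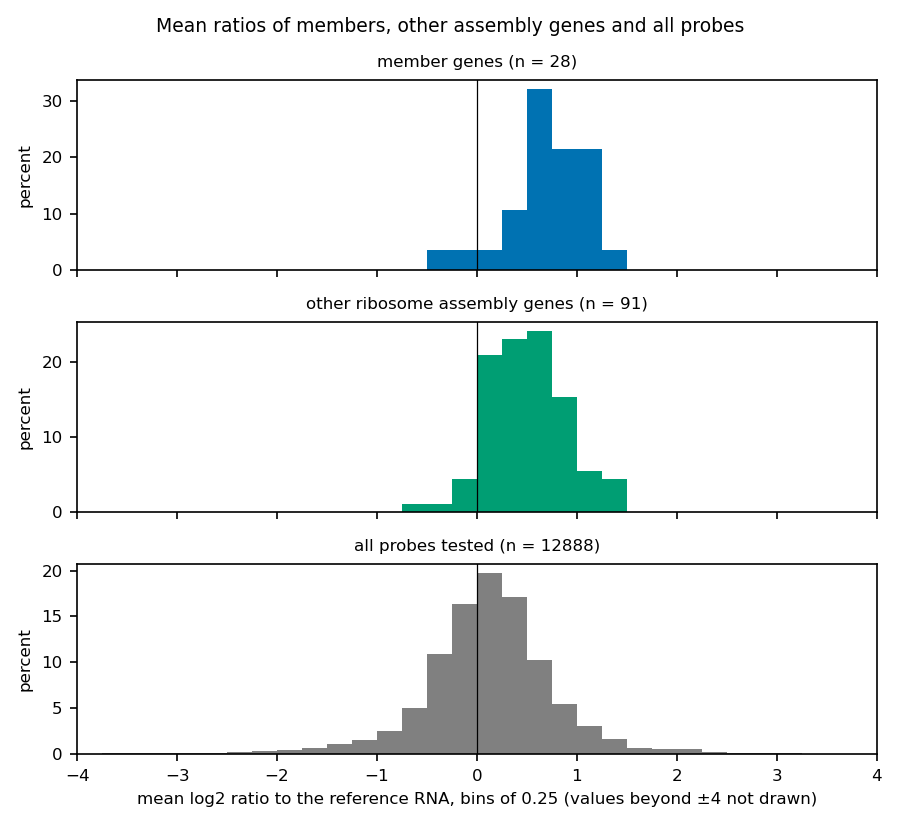
Mean log2 ratio to the reference RNA over the 15 extracts (x axis, bins of 0.25) and percent of each set per bin (y axis), for the 28 member genes, 91 other ribosome assembly genes and 12888 probes tested, with positive values on the Myc side. The members centre at 0.72 and the other assembly genes at 0.50, to the right of all probes at 0.13.

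The 3 tested subunits of RNA polymerase I were all on the Myc side. Polr1b, the second-largest subunit, had log2 ratios of 0.42 (550-A) at the lowest, 0.94 at the median and 1.66 (561-B) at the highest, so no extract reached 0. Its mean was 1.07 ± 0.12 (SE, n = 15; 2.10-fold; adjusted p = 9.33e-07, limma). This value rested on 1 orientation: the mean was -0.12 with the extract in channel 1 (adjusted p = 0.593) and 2.26 with it in channel 2 (adjusted p = 2.93e-08). Polr1a, the largest subunit, ran from -0.28 (550-A) through a median of 0.80 to 1.14 (547-A), with a mean of 0.72 ± 0.11 (SE, n = 15; 1.65-fold; adjusted p = 5.75e-05, limma). Polr1c, which RNA polymerase III also contains, was the lowest of the 3. It ran from -0.29 (579-D) through 0.47 to 1.62 (540-B), and 13 of 15 extracts were above 0. Its mean was 0.47 ± 0.12 (SE, n = 15; 1.38-fold; adjusted p = 0.00398, limma), with 0.10 in channel 1 (adjusted p = 0.651) and 0.84 in channel 2.

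The 3 nucleolar phosphoproteins were on the Myc side as well. Nolc1, a chaperone of snoRNP assembly, was the highest of them, at 0.31 (550-A), 1.18 and 1.67 (547-A) for the lowest, median and highest extract. Every extract lay above 0, and the mean was 1.11 ± 0.11 (SE, n = 15; 2.16-fold; adjusted p = 3.43e-07, limma). Ncl encodes nucleolin, an abundant RNA-binding protein of the nucleolus. Its first probe gave 0.18 (550-A), 1.03 and 1.31 (579-A), with a mean of 0.96 ± 0.10 (SE, n = 15; 1.95-fold; adjusted p = 8.43e-07, limma) that was nearly the same in both orientations (0.96 in channel 1 and 0.97 in channel 2). A second probe annotated to Ncl disagreed with it. That probe lay at -1.13 (550-A), -0.23 and 1.18 (546-A), above 0 in 3 of 15 extracts, with a mean of -0.26 ± 0.15 (SE, n = 15; adjusted p = 0.171, limma). Its value in 546-A came from the channel 1 array alone. The gene is counted by the first probe, which had values on 30 arrays against 29 for the second, and the reason for the disagreement was not tested. Npm1 encodes nucleophosmin, a histone and ribosome chaperone. It was the lowest of the 3, at -0.24 (550-A), 0.76 and 1.30 (540-B), with a mean of 0.64 ± 0.13 (SE, n = 15; 1.56-fold; adjusted p = 0.00044, limma).

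The core proteins of the box C/D snoRNPs, which guide methylation of ribosomal RNA, all passed on the Myc side. Nop56 was highest, at 0.36 (550-A), 1.09 and 1.42 (547-A), and above 0 in every extract. Its mean was 1.01 ± 0.10 (SE, n = 15; 2.01-fold; adjusted p = 2.11e-07, limma). Fbl, the methyltransferase fibrillarin, had the smallest spread over extracts of all members (SD 0.25), with values of 0.33 (550-A), 0.98 and 1.16 (579-F). Its mean was 0.88 ± 0.08 (SE, n = 15; 1.84-fold; adjusted p = 2.04e-07, limma). Nop58, the partner of Nop56 in the same particle, was lower, at -0.74 (579-D), 0.50 and 0.72 (547-A). Its mean was 0.36 ± 0.11 (SE, n = 15; 1.28-fold; adjusted p = 0.00952, limma), and with the extract in channel 2 alone it was 0.29 and did not pass (adjusted p = 0.0644). Rrp9, a protein of the U3 particle, had no value in 546-A and was not among the tested genes. Over its 14 other extracts it ran from -0.14 (579-E) through 1.36 to 1.92 (561-B), with 13 above 0 and a mean of 1.11 ± 0.17 (SE, n = 14; 2.16-fold; adjusted p = 6.02e-05, limma, without the requirement of a value in every extract).

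Nhp2, a core protein of the box H/ACA snoRNPs, had the highest ratio of all members. Its values were 0.60 (550-A), 1.52 and 2.02 (547-A), and all extracts but 550-A were at 1.04 or higher. The mean was 1.49 ± 0.11 (SE, n = 15; 2.81-fold; adjusted p = 9.13e-09, limma), with 1.73 in channel 1 and 1.25 in channel 2. Gar1, another protein of the same particle, was at -0.53 (579-D), 0.25 and 0.61 (579-A), above 0 in 10 of 15 extracts. Its mean of 0.18 ± 0.10 (SE, n = 15; adjusted p = 0.141, limma) did not pass. With array medians subtracted it did not pass either, while with the extract in channel 1 alone its mean was 0.32 (adjusted p = 0.0196). The remaining particle proteins gave no tested value: Nop10 had values on 22 arrays, under the minimum, and Dkc1 is not listed with a probe of its own.

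All 6 tested factors of small subunit assembly were on the Myc side, with a median log2 ratio of 0.82. Imp3, which binds the U3 snoRNA with Imp4, was highest, at 0.02 (550-A), 1.08 and 1.39 (595-A). Its mean was 1.03 ± 0.10 (SE, n = 15; 2.05-fold; adjusted p = 2.52e-07, limma). Imp4 averaged 0.82 ± 0.12 (SE, n = 15; adjusted p = 2.84e-05, limma), with 1.24 in channel 1 and 0.40 in channel 2. Wdr43, a subunit of the small-subunit processome, averaged 0.92 ± 0.14 (SE, n = 15; adjusted p = 3.45e-05, limma), and 14 of 15 extracts were above 0. Utp20, a very large scaffold protein of the same machinery, was among the most variable members (SD 0.86 over extracts), at -0.73 (579-D), 0.77 and 2.71 (546-A). Its mean was 0.83 ± 0.21 (SE, n = 15; 1.77-fold; adjusted p = 0.00338, limma). The value of Utp20 in 546-A came from the channel 1 array alone. Nob1, the endonuclease that makes the last cut of small subunit RNA, averaged 0.65 ± 0.09 (SE, n = 15; adjusted p = 2.01e-05, limma). Ddx10, an RNA helicase, was the lowest of the 6, at -0.36 (548-A), 0.41 and 0.90 (595-A). Its mean was 0.36 ± 0.11 (SE, n = 15; 1.28-fold; adjusted p = 0.0146, limma), with -0.06 in channel 1 (adjusted p = 0.795) and 0.78 in channel 2. Nop14, which had no value in 546-A, averaged 0.37 ± 0.12 over 14 extracts (SE; adjusted p = 0.0169, limma), and 11 of the 14 were above 0.

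Of the 11 tested genes of large subunit assembly, 9 passed toward the Myc side and 2 missed the threshold, with a median of 0.69. Nop16 was highest, at 0.49 (550-A), 1.15 and 2.06 (595-A), above 0 in every extract. Its mean was 1.19 ± 0.11 (SE, n = 15; 2.28-fold; adjusted p = 1.98e-07, limma). Nop2, a methyltransferase of large subunit RNA, averaged 1.11 ± 0.13 (SE, n = 15; 2.15-fold; adjusted p = 2.24e-06, limma), and 550-A at -0.22 was its only extract below 0. Of the PeBoW genes, Pes1 and Wdr12 passed and Bop1 did not. Pes1 averaged 0.92 ± 0.11 (SE, n = 15; adjusted p = 4.30e-06, limma), with -0.03 (550-A), 1.00 and 1.5 (546-B) for the lowest, median and highest extract. Wdr12 averaged 0.72 ± 0.13 (SE, n = 15; adjusted p = 0.000182, limma), with 13 of 15 extracts above 0. Bop1, the third PeBoW protein, was the lowest of all members and the most variable (SD 0.92), at -2.05 (548-A), -0.35 and 1.33 (579-F). Its mean was -0.38 ± 0.22 (SE, n = 15; adjusted p = 0.179, limma), and 5 of 15 extracts were above 0. The difference between Bop1 and its partners was not tested, and levels of different probes are not comparable.

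The remaining factors of the large subunit had lower means than Nop16 and Nop2. Ebna1bp2 averaged 0.69 ± 0.10 and Mrto4 0.69 ± 0.09, and Mrto4 was above 0 in every extract. Ddx21, an RNA helicase that also acts in ribosomal DNA transcription, averaged 0.60 ± 0.10 and was above 0 in every extract too. Nip7 averaged 0.62 ± 0.11 and the helicase Ddx18 0.52 ± 0.10, each with 14 of 15 extracts above 0 (SE, n = 15 for these 5 genes; adjusted p of 0.000452 or lower, limma). Rrs1 was lower, at -0.59 (579-D), -0.24 and 0.61 (561-B), with 4 of 15 extracts above 0. Its mean of -0.14 ± 0.10 (SE, n = 15; adjusted p = 0.287, limma) did not pass, and with array medians subtracted it was -0.23 and passed on the opposite side. A second probe of Ebna1bp2 had no value in 546-A and averaged 0.15 ± 0.18 over 14 extracts (SE; adjusted p = 0.536, limma), below the first probe. Of the listed genes without a probe of their own, Gnl3, Rrp12, Tsr1, Wdr3 and Wdr75 complete the account beside Dkc1.

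**Figure D2:**
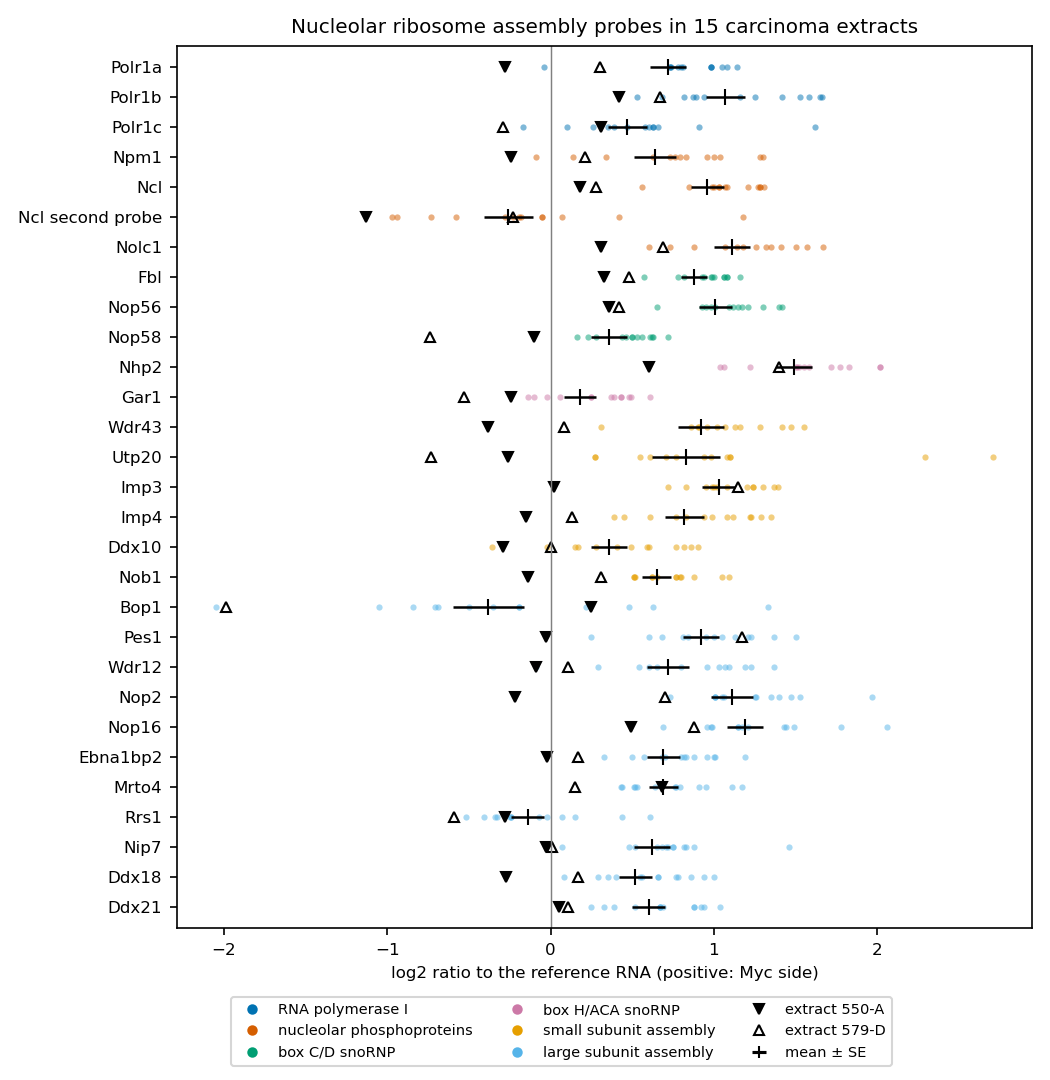
Log2 ratio to the reference RNA (x axis, positive on the Myc side) of each of the 29 member probes (y axis, ordered and coloured by role) in 15 extracts. Each dot is an extract, the filled triangle is 550-A, the open triangle is 579-D, and the tick with its bar is the mean with its SE. Nhp2 is highest at 1.49 and Bop1 lowest at -0.38, and 550-A is the lowest extract for 19 of 28 genes.

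The other genes of the pathway, listed apart from the members, lay mostly on the same side, with a lower median. They too were listed with earlier results of these data known. Of 120 such genes 91 were tested: 65 passed toward the Myc side and 2 toward the other, and 24 missed the threshold, with a median of 0.50. With array medians subtracted the counts were close to these (60 toward the Myc side and 4 opposite to it). With the extract in channel 1 alone they were 51 and 5. By the same rule, 30.4% of all probes lay on the Myc side and 16.9% opposite to it. With medians subtracted these shares were 25.7% and 21.4%. In channel 1 alone, 3074 of 12888 probes (23.9%) lay on the Myc side and 4361 opposite to it. Among 11 other RNA polymerase I genes, 6 passed toward the Myc side and 1 opposite to it. Tcof1, which recruits the polymerase to ribosomal DNA, averaged 0.87 ± 0.13 and Cd3eap, a polymerase subunit, 0.83 ± 0.13. Polr1d, a shared subunit, averaged 0.55 ± 0.08, while Znrd1, a small subunit of the polymerase, averaged -0.39 ± 0.13 (SE, n = 15; adjusted p = 0.0182, limma). Among 8 other snoRNP assembly genes, 5 passed, all toward the Myc side, from 0.47 for Pih1d1 and 0.51 for Znhit6 to 0.73 for Ruvbl1 and 0.79 for Snu13.

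Other small subunit genes were on the Myc side in 21 of 27 cases and on the opposite side in none. The processome subunit Tbl3 reached 1.5 ± 0.15 and Bysl 1.27 ± 0.14, while Ddx47 (0.33) and Tsr2 (0.27) were the lowest that passed. Other large subunit genes were on the Myc side in 29 of 37 cases. Ppan reached 1.48 ± 0.13 and Las1l 1.18 ± 0.14. Eif6, which keeps the subunits apart, averaged 0.21 ± 0.08, and Spata5 passed on the opposite side at -0.60 ± 0.16 (SE, n = 15; adjusted p = 0.0051, limma). The exosome, which trims and degrades RNA, had 4 of 8 tested genes on the Myc side and a lower median of 0.23. Its Exosc4 averaged 1.43 ± 0.12 (SE, n = 15; adjusted p = 5.81e-08, limma), while Exosc9 and Dis3 averaged 0.32 each and Mtrex 0.25, and the 4 that did not pass ran from -0.14 to 0.22.

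The side of most members did not depend on the channel. With the extract in channel 1 alone, 23 member genes were on the Myc side (23.9% of all probes) and the member median was 0.68 against -0.12 over all probes. In channel 2 alone, 24 were (45.5% of all probes), and the medians were 0.77 and 0.39. The member median thus moved by less between the orientations than that of all probes. Polr1b and Ddx10 changed sign between the orientations, and all 3 polymerase subunits were higher in channel 2, where Polr1a had 1.11 against 0.32 in channel 1. Pes1 had 1.15 in channel 2 and 0.69 in channel 1. Imp4, Imp3, Nhp2 and Nop56 were higher in channel 1. Imp3 had 1.32 in channel 1 and 0.75 in channel 2, and Utp20 had 0.96 and 0.54 in that order. Utp20 lacked a value for 579-E in channel 1 and for 546-A in channel 2, so its means cover different extracts.

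**Figure D3:**
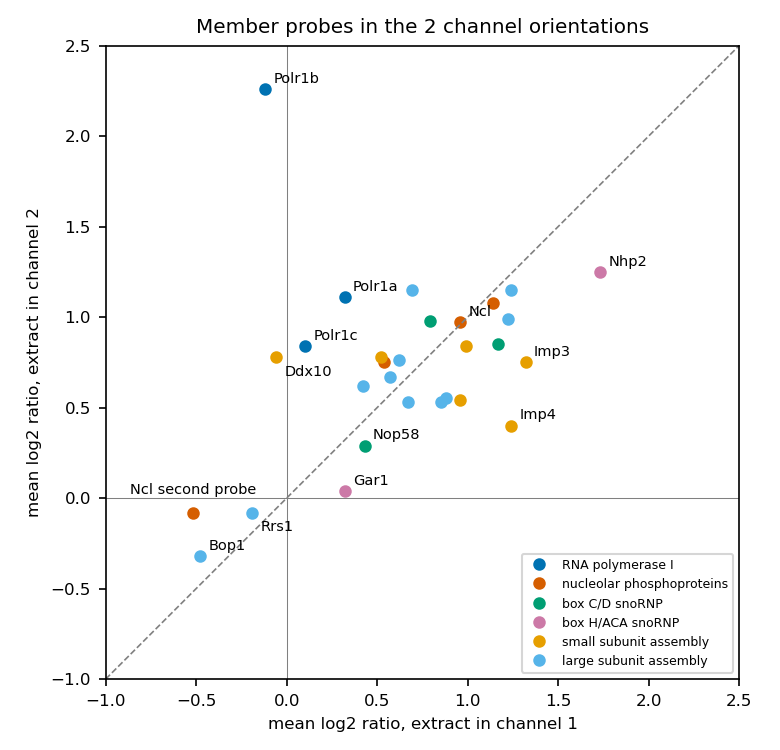
Mean log2 ratio of each of the 29 member probes over up to 15 arrays with the extract in channel 1 (x axis) and up to 15 arrays with it in channel 2 after the sign was turned (y axis), coloured by role. Utp20, Bop1 and the second probe of Ncl lack values on some arrays. The dashed line marks equal values. Polr1b lies farthest from it, at -0.12 and 2.26, and Nhp2 is high in both at 1.73 and 1.25.

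Few member probes passed a test between extracts. Asked whether extracts differed by more than the paired arrays of 1 RNA, limma's F-test called 1 of 29 member probes, the second probe of Ncl (adjusted p = 0.027), against 6.73% of all probes. At an unadjusted p under 0.05 there were 10 of 29 member probes and 21.96% of all probes. The 1 call is lost with array medians subtracted (0 of 29 members, against 5.63% of all probes), without the dye term, without 550-A and without the 2 extracts that lacked most values (546-A and 548-A). Among probes with values on all 30 arrays the count was 4 of 26 members, namely Npm1 (adjusted p = 0.0303), Nhp2 (0.0319), Wdr43 (0.0341) and Imp3 (0.0342) by limma, against 14% of those probes.

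Extract 550-A, described under progression, had the lowest ratios of these genes, counted toward the Myc side. Were the ratio to run the other way, its levels would be the highest. Its median over the 28 genes was -0.03, next to 0.17 in 579-D and 0.51 to 1.05 in the other 13 extracts. It was the lowest extract for 19 of 28 genes and above 0 for 12 of them, while it was lowest for 17.6% of all probes. It ranked lowest in both orientations, with member medians of 0.09 in channel 1 and -0.10 in channel 2, where 579-D had 0.11 and 0.33. Its median over all probes was low too, at -0.17, where the 15 extracts ran from -0.25 to 0.44. With array medians subtracted it kept the lowest member median (0.16, against 0.44 in 579-D and 0.91 in the highest, 547-A). It was then the lowest extract for 11 of 28 genes and for 9.3% of all probes. Subtracting array medians also set the orientations further apart: the member medians of an extract's paired arrays differed by 0.64 on average, against 0.23 as deposited, and 550-A then ranked 1 of 15 in channel 1 and 5 of 15 in channel 2.

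Several other measures were extreme in 550-A too. Its Myc ratio of 2.38 as deposited was the lowest of the 15 extracts (highest 3.68, in 579-F). With array medians subtracted, Myc in 550-A was 2.57, still the lowest but close to 2.65 in 597-B. It was then highest in 579-D (3.91), whose member median (0.44) was next to the lowest. Also with medians subtracted, the fibroblast markers of 550-A averaged 0.90, the highest of all extracts, which ran down to -2.69 in 579-D. Its proliferation markers averaged -0.48, next to the lowest of -0.57 in 579-E. Its epithelial markers averaged 2.59, within the range of 1.60 (579-F) to 3.25 (546-A). On the same scale, 546-A and 540-B had fibroblast averages of 0.80 and 0.61 and member medians of 0.51 and 0.79. The part of these markers in the low value of 550-A was not tested, and in bulk RNA fewer cells of a type and less RNA per cell cannot be told apart. Of the 12 proliferation markers, 2 passed against the reference toward the Myc side (Mcm7 at 1.01 and Plk1 at 0.51). Another 2 passed opposite to it (Top2a at -0.83 and Bub1 at -0.95), and the median of the 12 was 0.07. Over all probes, 30.4% passed toward the Myc side and 16.9% opposite to it.

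**Figure D4:**
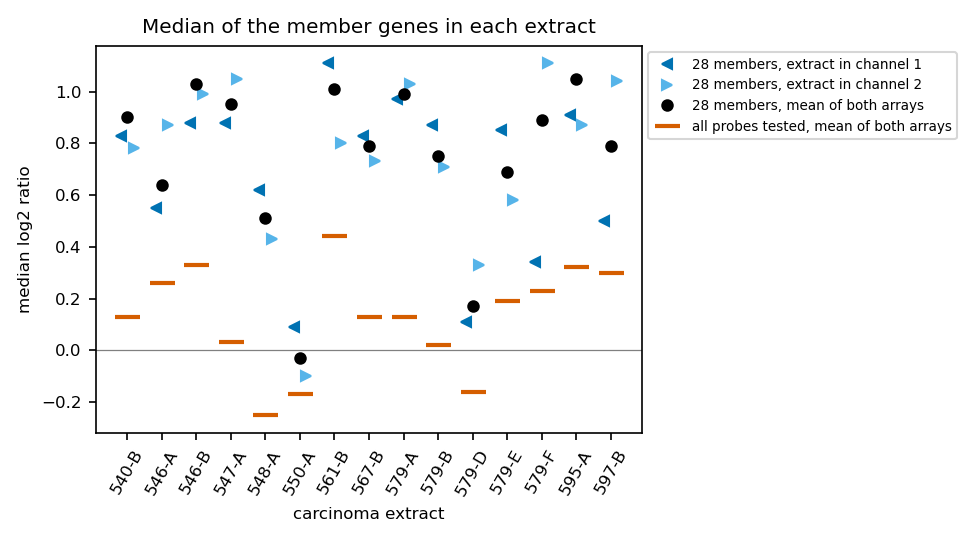
Median log2 ratio of the 28 member genes (y axis) in each extract (x axis), for the array with the extract in channel 1, the array with it in channel 2 and the mean of both, with the median of all probes tested as an orange bar. Extract 550-A lies at -0.03 and 579-D at 0.17, and the other 13 extracts lie between 0.51 and 1.05.

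No member passed in either split of the extracts that the labels give. In the 5 extracts of number 579 against the 10 of other numbers, none of 29 member probes passed (limma; none of 12888 probes, 0%, did), and at an unadjusted p under 0.05 there were 0 member probes and 460 probes in all. Differences ran from -0.33 for Wdr12, with 0.49 ± 0.59 in 579 and 0.83 ± 0.41 in other numbers (SD, n = 5 and 10), to 0.57 for Bop1, with 0.00 ± 1.25 in 579 and -0.57 ± 0.71 in other numbers. Number 579 was itself not uniform, since its member medians ran from 0.17 in 579-D to 0.99 in 579-A. In the 2 extracts described under progression against the 12 under EMT, none of 29 member probes passed (limma; 0.00776% of all probes did). At an unadjusted p under 0.05 there were 2 member probes and 525 probes in all (4.07%). The 2 progression extracts lay far apart: the member median was -0.03 in 550-A and 1.01 in 561-B, so a mean of the 2 describes neither.

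Members tended to rank the extracts alike. Over the 378 pairs of member genes, with array medians subtracted, Pearson's r across the 15 extracts had a median of 0.27 and was positive in 76.2% of pairs, and without 550-A the median was 0.17 and 66.9% were positive. Over all pairs of the probes tested the median was 0.01 with 51.6% positive, and 0.02 with 51.7% positive without 550-A. These pairs were examined after the values had been seen. Of the 378, 5 passed a permutation test of r after Benjamini-Hochberg adjustment, all with positive r, 8 passed for Spearman's rho, and 3 for both, with 69 at an unadjusted p under 0.05 for r. The share of all probe pairs that would pass is not given, so these counts have no background to be set against.

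By Pearson's r, the highest correlations joined nucleolin with Nop56 and Fbl of the box C/D core. Ncl stands here for its first probe, and the second probe, which disagreed with it, entered no pair. Ncl and Nop56 had r = 0.87 (permutation test, adjusted p = 0.0113) and rho = 0.84 (adjusted p = 0.0265), with r of 0.77 in channel 1, 0.86 in channel 2 and 0.80 without the 2 extracts farthest from the median of Ncl. Fbl and Nop56, which share a particle, had r = 0.84 (permutation test, adjusted p = 0.0132) and rho = 0.90 (adjusted p = 0.00756), with r of 0.58 in channel 1 and 0.74 in channel 2. Ncl and Fbl had r = 0.82 and Nolc1 and Nop56 r = 0.78 (permutation test, adjusted p = 0.0325 each), but their rho did not pass. In these 4 genes the low values came from 550-A (0.37 for Ncl, 0.55 for Nop56, 0.53 for Fbl and 0.50 for Nolc1) and 579-E (0.41, 0.50, 0.42 and 0.45), and 579-B was high in all (1.33, 1.34, 1.13 and 1.40). Ncl was also low in 561-B (0.38). The values of 579-E average unlike arrays, with a median over all members of 1.44 in channel 1 and -0.31 in channel 2. These were the highest and the lowest of the 15 extracts in those channels. Some extracts lay above 579-B, such as 548-A for Ncl (1.49) and Nop56 (1.61) and 547-A for Nolc1 (1.63), while for Fbl 579-B was highest. Nop56 and Nop58, of the same particle, had rho = 0.88 (permutation test, adjusted p = 0.00756), but their r of 0.63 did not pass (adjusted p = 0.168). Other partners named above did not pass by r or rho. Their r was 0.54 for Fbl and Nop58, 0.21 for Nhp2 and Gar1, and 0.21 for Imp3 and Imp4. Within PeBoW it was -0.01 for Pes1 and Wdr12, -0.21 for Bop1 and Pes1, and -0.38 for Bop1 and Wdr12. Polr1a and Ddx10 had r = 0.75 (permutation test, adjusted p = 0.0325) and rho = 0.82 over the averaged values, but r was 0.01 in channel 1 and 0.37 in channel 2, so the relation did not hold within the orientations. Wdr12 passed for rho but not r with Nop58 (rho = 0.82), Imp4 (0.81) and Ebna1bp2 (0.78), as did Polr1a with Npm1 (0.81).

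**Figure D5:**
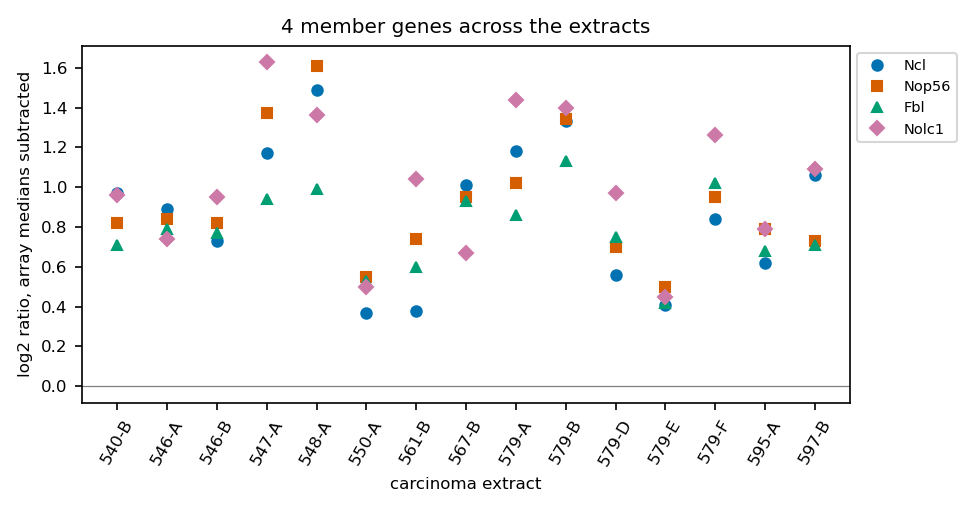
Log2 ratio with array medians subtracted (y axis) of Ncl, Nop56, Fbl and Nolc1 in each of the 15 extracts (x axis). As means of both arrays, the 4 genes are low together in 550-A and 579-E and high together in 579-B, where they lie between 1.13 and 1.40. Ncl and Nop56 are higher still in 548-A.

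No correlation of a member with Myc across extracts passed the adjusted threshold. Over the 15 extracts, with array medians subtracted, none of 28 members correlated with Myc at an adjusted p under 0.05, by r or by rho (permutation test, 28 relations), and 2 did at an unadjusted p under 0.05 for r. The share of all probes at that unadjusted threshold is not given. Nob1 had r = 0.58 (permutation p = 0.0229, adjusted p = 0.552) and rho = 0.73 (permutation p = 0.00278, adjusted p = 0.0778), with r of 0.82 without 579-D and 579-B, the extracts farthest from the median of Myc, and 0.46 in the 12 EMT extracts. Fbl had r = 0.51 (permutation p = 0.0497) and rho = 0.59. Of the 28 values of r, 21 were positive, with a median of 0.17 against 0.05 over all probes (56.1% positive), and the median was 0.04 in the EMT extracts. Without 550-A, 17 were positive with a median of 0.10, and with the array level as deposited 26 were, with a median of 0.26. The SD of Myc over extracts was 0.40 with array medians subtracted.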

How the data were processed

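The authors deposited 1 table of log2 ratios of the 2 channels for 22800 probes and 30 arrays; the log2 scale and the ratio were read from the deposited values, and no source used here states the background correction, normalization or scanner. A placeholder of 16.61 (8839 cells) was treated as missing, with 95268 blank cells, which left 84.8% measured. Of the measured values 33.6% matched, at 3 decimals, a ratio between integers no larger than 20. Channel intensities were not used here, so depth is unknown and the number of arrays limits precision. Array medians differed as deposited, and the main tests used the values without centring. Correlations across extracts, marker averages per extract and stated alternatives had array medians subtracted, unless said otherwise. The direction of the ratio is unknown.

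The sign was turned on arrays with the extract in channel 2, and the arrays of each extract were averaged. Probes entered with values on at least 24 arrays and 1 array of every extract. Extract means were tested against 0, 579 against other numbers, and progression against EMT with limma 3.58.1 (lmFit, eBayes) in R 4.3.3, Benjamini-Hochberg adjusted over 12888 probes at a threshold of 0.05; extracts were compared by limma's F-test on 30 arrays with a dye term. Correlations used 100000 permutations. The steps were tested on simulated data. Probe names came from the platform annotation, with 16874 probes to 1 symbol; 134 had several and 5792 were unlisted, and 16196 of the single-symbol probes matched RefSeq (GRCm38.p6), with 0 symbols updated.

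The members and gene lists were chosen with earlier results of these data known. All listed genes are accounted for; where a gene had 2 probes tested, the gene value is that of the probe with most arrays, ties going to the smaller paired difference. Named in full are the highest and lowest gene of each role, genes that differed between extracts, the largest SDs, and the 2 highest and 2 lowest passing genes of each other list; the remaining members named are an account of the list. Alternatives covered array centring, each orientation, missing values, dim probes, probe averaging, code numbers as 1 mean or a random block, and left-out extracts.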

Additional observations from a re-analysis of the deposited data

Results flagged for a closer look

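Values that lay far from the others were sought by Dixon's criterion in the 10 extracts of other numbers and in the 5 of number 579. The 29 member probes and Myc were searched on values as deposited, where 550-A was lowest for 17.6% of all probes. No count over all probes was made and the groups share extracts, so the number of passes cannot be set against chance. The criterion is set to pass about 1 in 20 independent groups by chance, and these groups are not independent. Of 60 groups, 11 passed. In 6 of them the extract was 550-A on the low side of the other numbers: Ncl at 0.18 (the others 0.85 to 1.28), Fbl at 0.33 (0.78 to 1.08), Nop56 at 0.36 (0.93 to 1.42), Imp3 at 0.02 (0.95 to 1.39), Nob1 at -0.14 (0.51 to 1.05) and Wdr12 at -0.09 (0.54 to 1.23).

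In 546-A, Utp20 stood high at 2.71 (the others -0.26 to 1.10) and the second probe of Ncl at 1.18 (-1.13 to 0.07). Both values came from the channel 1 array of 546-A alone, so a dye effect is not cancelled in them. Polr1c stood high in 540-B at 1.62 (-0.17 to 0.63) and Rrs1 in 561-B at 0.61 (-0.52 to 0.07). Within number 579, Nop58 stood low in 579-D at -0.74 (0.23 to 0.62). The causes were not tested.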

How the results depend on the processing

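Against the reference, 25 of 28 members stayed on the Myc side with array medians subtracted (25.7% of all probes). The count was 23 in channel 1 (23.9% of all probes) and 24 in channel 2 (45.5%). Among probes with values on all 30 arrays it was 24 of 26 (39.3% of those probes). It was 27 of 30 without the requirement of a value in every extract (27.1% of the probes then tested). Without 550-A it was 25 (31.6% of all probes). The last 2 alternatives were added after seeing the data. The member median ran from 0.62 to 0.78 over the alternatives. The count of other assembly genes on the Myc side ran from 48 of 66 (all 30 arrays) to 68 of 98 (no value needed in every extract), with the smallest share, 51 of 91, in channel 1. In channel 1 alone the sign turned for Polr1b (-0.12) and Ddx10 (-0.06), neither of which passed there, and Polr1c fell short of the threshold at 0.10; in channel 2 alone Nop58 did at 0.29. Passing only under an alternative were Rrs1 (-0.23, medians subtracted), Gar1 (0.32, channel 1), Bop1 (-0.55, 1 mean per number) and the second probe of Ncl (-0.52 in channel 1, -0.31 without 546-A and 548-A). The count of members that differed between extracts was 0 with medians subtracted, without the dye term, without 546-A and 548-A, without 550-A, and without 550-A with medians subtracted, and 4 among probes with values on all 30 arrays. The causes were not tested. Leaving out in turn each of the 5 extracts of 579, or each of the 2 progression extracts, gave 0 to 0 members in that comparison. No paired analysis was possible because all extracts form 1 group.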

Other observations

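Exosc4, a core subunit of the exosome, averaged a log2 ratio of 1.43, above the 7 other tested exosome genes (-0.14 to 0.32); it was picked out after its value was seen. Utp20 was high in 579-F (2.29) as well as in 546-A (2.71, from the channel 1 array alone), and low in 579-D (-0.73).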
